A study of Mus musculus with 12 samples.

Results

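The 38 genes described here are interferon-stimulated effector genes, whose products act against viruses and other pathogens or tune the interferon response. They were taken by symbol from a list that was chosen with earlier results of these data known. The shares of all genes set beside counts of these genes are therefore description only. All 38 were found among the 37991 gene identifiers counted. All 38 also passed the filter on low counts, which left 15098 genes for testing. RNA was counted in 12 libraries of primary mouse embryonic fibroblasts (MEFs), which are connective tissue cells, with 3 libraries in each of 4 groups. The groups are labelled DKO (Gadd45a-/-;Ing1-/- double mutant), Ing1 KO (Ing1 single mutant), Gadd45a KO (Gadd45a single mutant) and WT (wild type). All cells were male and C57BL/6N, came from E15.5 embryos and were harvested at passage 4 and 80% confluency, per the labels. The embryos came from crosses of Gadd45a-deficient with Ing1-deficient mice, and the labels restrict neither mutation to a cell type. The labels name no treatment with interferon or with a virus. Nothing in the labels tells whether libraries of the same group come from separate embryos, so p-values measure the spread between these libraries, which may be technical. Ing1 is a reader of histone methylation found in deacetylase complexes, and Gadd45a is induced by stress and takes part in DNA repair and demethylation.

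Interferons are secreted proteins that warn neighbouring cells of infection. Type I interferon binds the receptor pair Ifnar1 and Ifnar2, whose kinases Jak1 and Tyk2 switch on transcription factors such as Stat2. In a complex with Irf9 these bind interferon-stimulated response elements in the promoters of genes such as those described here. Fibroblasts respond to this signal, and many of these genes are expressed at a low tonic level without an added stimulus.

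The response element repeats the letters GAAA. A core of it (GAAA, any 2 bases, GAAA, on either strand) was searched in the promoter windows of RefSeq, build GRCm38, which run from 250 bases before to 50 bases after a gene's start. A window was found for 30 of the 38 genes. The core was in 14 of these 30 (46.7%), against 3.99% of the 27025 genes with a window and 3.44% of all 32851 windows. The 14 genes were Bst2, Ddx60, Gbp2, Gbp3, Gbp7, Ifit1, Ifit3, Ifitm3, Isg15, Oas1a, Oas3, Rsad2, Slfn5 and Trim30a. With 3 repeats of GAAA in place of 2, 4 of the 30 held it (Bst2, Gbp3, Isg15 and Oas1a), against 0.133% of genes. A match describes the letters only. The 180 bases before the start are shown for the 3 genes with the core that fell most in Ing1 KO. The core is in capitals, and each sequence is written 5′ to 3′ on the gene's strand.
Slfn5 (chr11:82951922-82952101, plus strand): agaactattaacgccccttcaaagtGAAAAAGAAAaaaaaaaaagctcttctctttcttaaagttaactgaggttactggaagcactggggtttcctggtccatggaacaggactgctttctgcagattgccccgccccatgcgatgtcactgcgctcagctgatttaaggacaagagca
Ifit1 (chr19:34640709-34640888, plus strand): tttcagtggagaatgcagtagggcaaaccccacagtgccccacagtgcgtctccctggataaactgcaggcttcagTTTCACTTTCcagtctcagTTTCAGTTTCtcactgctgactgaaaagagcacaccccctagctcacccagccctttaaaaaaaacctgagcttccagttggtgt
Isg15 (chr4:156200819-156200998, minus strand): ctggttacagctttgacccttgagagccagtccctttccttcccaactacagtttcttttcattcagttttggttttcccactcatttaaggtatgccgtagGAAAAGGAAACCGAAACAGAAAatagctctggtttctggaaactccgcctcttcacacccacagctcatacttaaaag
The core of Ifit1 lies on the opposite strand, where GAAA reads TTTC, at 2 places. In Isg15 overlapping matches make a single run, and in Slfn5 the match opens a stretch rich in A. The median log2 fold change in Ing1 KO against the WT was -1.26 over the 14 genes with the core and -0.73 over the 16 without it. Both sets spanned a wide range, from -3.04 to -0.04 with the core and from -2.45 to -0.13 without it.

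Libraries held 31493168 to 42852059 counts in genes. Levels are CPM, the counts scaled to a common library size with TMM factors. Ing1 had 1.29, 0.916 and 1.14 CPM in the labelled DKO and 1.01, 1.23 and 1.42 CPM in Ing1 KO, whereas it averaged 52.2 ± 2.4 CPM in the labelled Gadd45a KO and 52.3 ± 2.02 CPM in the WT (SD, n = 3 each). Gadd45a was higher in the libraries labelled as lacking it. Gadd45a averaged 126 ± 6.29 CPM in the labelled DKO and 18.4 ± 1.91 CPM in Ing1 KO, had 75.9, 118 and 106 CPM in the labelled Gadd45a KO and averaged 21.1 ± 0.197 CPM in the WT. Which part of Gadd45a was deleted is not given here, and counts from outside that part check no label. These groups are therefore called the labelled DKO and the labelled Gadd45a KO, and each direction given for them rests on the labels. The 13 fibroblast markers summed to 65398 to 79048 CPM over the 12 libraries. In Ing1 KO against the WT 3 of them were higher and 4 lower (log2 fold changes from -1.56 to 0.45). Of all genes, 12.1% were higher and 11.4% lower there. In the labelled DKO against the WT 2 of the markers were lower, where 10.3% of all genes were. Each of the 9 lymphocyte markers was below 0.5 CPM in every group. Mitochondrially encoded genes summed to 11439 to 11691 CPM in the labelled DKO, 10544 to 11573 CPM in Ing1 KO, 10543 to 11094 CPM in the labelled Gadd45a KO and 12096 to 12986 CPM in the WT, so the WT libraries were highest.

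The 17 macrophage markers moved with the labelled DKO. Their summed level was 2518 to 3098 CPM in the labelled DKO, 406 to 718 CPM in Ing1 KO, 162 to 627 CPM in the labelled Gadd45a KO and 308 to 528 CPM in the WT. All 16 markers that were tested were higher in the labelled DKO than in the WT, where 15.6% of all genes were. Their median log2 fold change was 2.43. By edgeR none was called in Ing1 KO against the WT, where the median was 0.25, the smallest adjusted p was 0.578 and 0 had an unadjusted p under 0.05. Csf1r, the receptor of a macrophage growth factor, had 161, 130.5 and 122 CPM in the labelled DKO and 10.9, 40.1 and 36.7 CPM in the labelled Gadd45a KO. In Ing1 KO Csf1r had 27.4, 26.8 and 47.1 CPM, against 20.8, 30.7 and 29.7 CPM in the WT. Cd163 was the one macrophage marker below 0.5 CPM in every group. Of the 8 dendritic cell markers, Flt3, Siglech, Xcr1 and Ccr9 were below 0.5 CPM in every group. The list also holds Bst2, 1 of the 38 effector genes, and it summed to 61.1 to 67.6 CPM in the labelled DKO, 21.9 to 24.8 CPM in Ing1 KO, 29.8 to 31.8 CPM in the labelled Gadd45a KO and 33.5 to 43.2 CPM in the WT. Bst2, whose values are given below, made up most of this sum in every library. Of the 4 tested, Bst2 and Irf8 were higher in the labelled DKO than in the WT, as were 15.6% of all genes. Itgax and Zbtb46 were not called there. In these bulk libraries, fewer cells of a type and less RNA per cell cannot be told apart. Macrophages express interferon-stimulated genes too, and the part of these cells in the labelled DKO values below was not tested.

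In Ing1 KO most of the effector genes were lower than in the WT. Of the 38, 33 fell, none rose and 5 were not called, where 11.4% of all genes tested fell and 12.1% rose. Here and below, a gene is called at a Benjamini-Hochberg adjusted p under 0.05 over all genes in edgeR's quasi-likelihood test. All 38 log2 fold changes were below 0, and their median was -1.16, against -0.0026 over all genes tested. All 12 mitochondrially encoded genes tested also had log2 fold changes below 0, with a median of -0.18 and 4 called, and their part in the effector gene values was not tested. Slfn5, Ifit1, Oasl2, Oas2, Isg15, Mx2, Usp18 and Sp100 had log2 fold changes between -3.04 and -2.03. The libraries of both groups did not overlap for 33 of the 38, all lower in Ing1 KO, against 18.8% of all genes. The 5 not called were Oas3, Mx1, Rsad2, Nmi and Ifi35. In 12 fits that each left out 1 library, 28 of the 33 calls held throughout. Those of Cmpk2, Ifit3, Oasl1, Samhd1 and Slfn2 were lost in some fits, and the range of edgeR adjusted p over such fits is given in parentheses under each gene. Over all genes 3543 were called, and 1858 without Ing1 KO replicate 2 and 2113 without WT replicate 2, where 28 or more of the effector genes were still called.

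In the labelled Gadd45a KO no effector gene was called against the WT. By edgeR 0 of the 38 passed the threshold, as did 0.00662% of all genes, a single one, Gadd45a itself. All 38 log2 fold changes were below 0, with a median of -0.43 against 0.0033 over all genes. The 12 mitochondrially encoded genes were below 0 here too, with a median of -0.22, none called by edgeR and 11 at an unadjusted p under 0.05. An unadjusted p under 0.05 was found for 21 of the 38 (55.3%), against 8.82% of all genes. For 21 of the 38 every library of the labelled Gadd45a KO lay below every WT library, against 6.97% of all genes. DESeq2 called 4 of them as lower, Isg15 (DESeq2 adjusted p = 0.0048), Ifit1 (0.0194), Usp18 (0.0257) and Herc6 (0.0393). Their edgeR log2 fold changes were -1.06 ± 0.26 log2 for Isg15, -1.24 ± 0.31 log2 for Ifit1, -1.17 ± 0.26 log2 for Usp18 and -0.58 ± 0.13 log2 for Herc6 (SE, edgeR adjusted p 0.423 to 0.425). The mean of the labelled Gadd45a KO lay between those of Ing1 KO and the WT for 36 of the 38 genes (94.7%), against 25.3% of all genes.

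**Figure D1:**
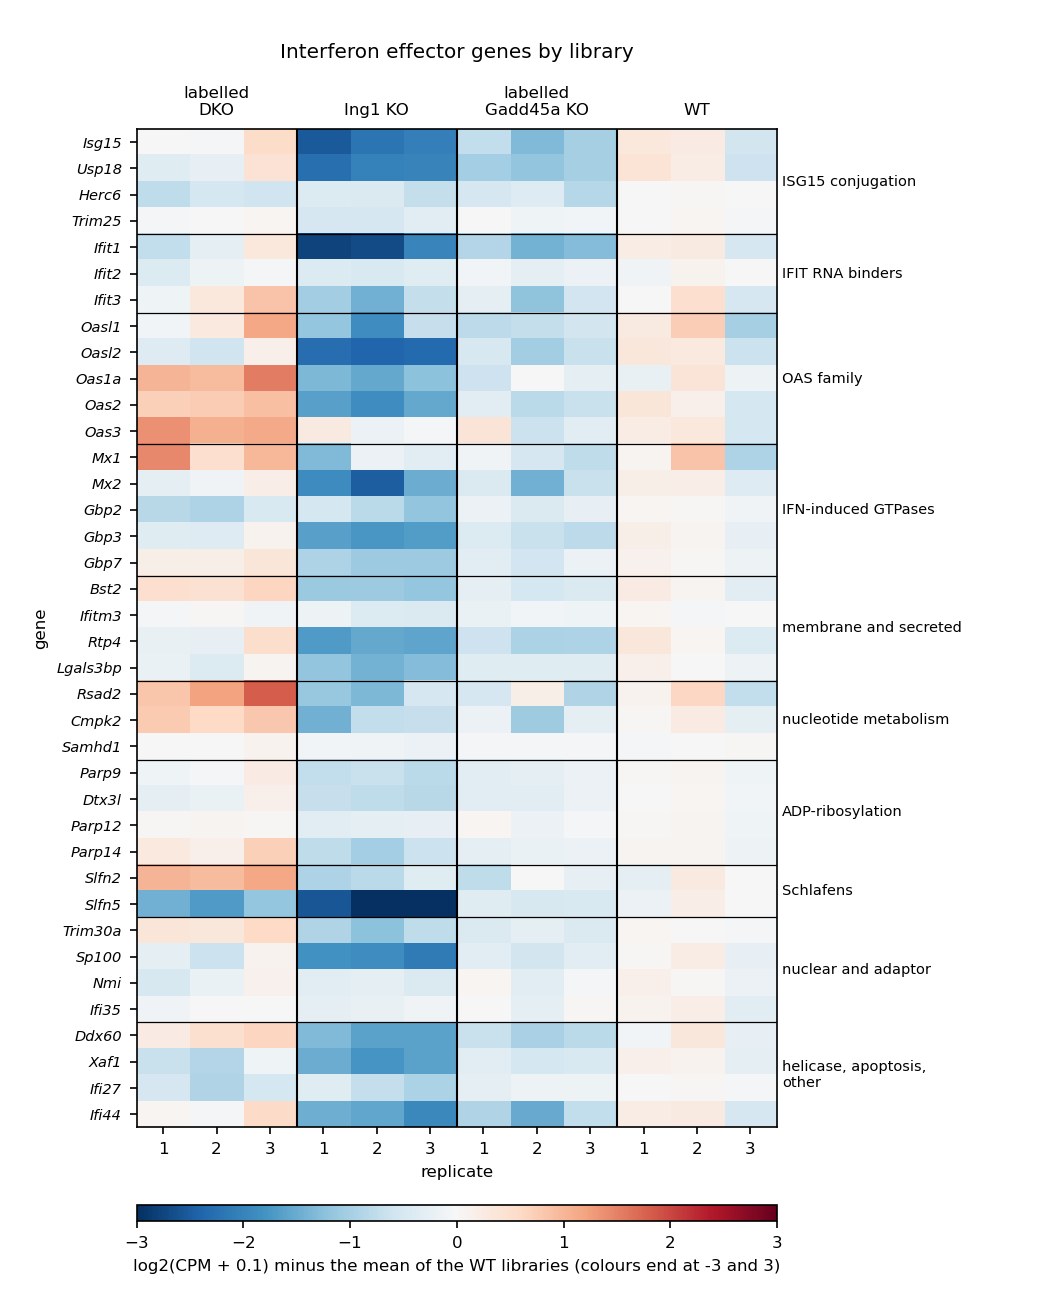
Each row is 1 of the 38 genes, grouped by role, and each column 1 library, with the labelled DKO, Ing1 KO, the labelled Gadd45a KO and the WT from left to right; colour is log2(CPM + 0.1) minus the mean of the 3 WT libraries. The Ing1 KO columns are blue for nearly all rows, the labelled Gadd45a KO columns are paler blue, and the labelled DKO columns hold both red rows (Oas1a, Rsad2, Slfn2) and blue ones (Slfn5, Gbp2).

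In the labelled DKO most of the effector genes stood above their Ing1 KO level. Against Ing1 KO, 32 of the 38 were higher, none was lower and 6 were not called (Herc6, Ifit2, Gbp2, Nmi, Ifi35 and Ifi27), where 14.9% of all genes were higher and 9.88% lower. The median log2 fold change was 1.53, and for 33 of the 38 every labelled DKO library lay above every Ing1 KO library, against 22.6% of all genes. Against the labelled Gadd45a KO, 20 were higher, 2 were lower (Slfn5 and Ifi27) and 16 were not called, where 15.8% of all genes were higher and 10.6% lower. The median there was 0.61. Against the WT, 8 were higher (Oas1a, Oas2, Oas3, Rsad2, Bst2, Parp14, Slfn2 and Trim30a) and 5 lower (Herc6, Gbp2, Slfn5, Xaf1 and Ifi27), where 15.6% of all genes were higher and 10.3% lower. The median against the WT was 0.03, and both counts were near the shares of all genes. These comparisons share the labelled DKO libraries, in which the macrophage markers moved too.

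Without 1 library, 28 of the 32 calls against Ing1 KO, 15 of the 22 against the labelled Gadd45a KO and 8 of the 13 against the WT held in all 12 fits. Against the WT the higher genes numbered 4 without WT replicate 3 and 5 without DKO replicate 1 or 3. The lower genes numbered 8 without DKO replicate 3, with Ifit2, Lgals3bp and Dtx3l added (edgeR adjusted p 0.0341 to 0.038). Cmpk2 was called against the WT without Gadd45a KO replicate 1 or 2 or Ing1 KO replicate 1 or 3 (0.0333 to 0.0492), and Ddx60 without WT replicate 2 (0.0424). Ifit2 was called against Ing1 KO without DKO replicate 1 (0.0226). Against the labelled Gadd45a KO, Gbp2 was lower without DKO replicate 3 or Ing1 KO replicate 1 or 3 (0.0173 to 0.0266), and Gbp3 higher without Gadd45a KO replicate 1 or WT replicate 3 (0.0455 to 0.0477). Over all genes 3740 were called against Ing1 KO, and 2249 without Ing1 KO replicate 2.

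The change that went with the loss of Ing1 differed between the labelled Gadd45a backgrounds. The interaction tested was the log2 fold change of the labelled DKO over the labelled Gadd45a KO, minus that of Ing1 KO over the WT. It was above 0 and called for 32 of the 38 genes, with a median of 2.05, where 10.4% of all genes were called above 0. Below 0 none was called, where 7.4% of all genes were. The 6 not called were Herc6, Oas3, Gbp2, Nmi, Ifi35 and Ifi27. Oas2 had the largest interaction, 3.94 ± 0.45 log2 (SE, edgeR adjusted p = 0.000552), and those of Ifit1 and Mx1 were 3.59 ± 0.47 log2 and 3.56 ± 1.07 log2 (SE). Without 1 library, 28 of the 32 calls held in all 12 fits, and Oas3 was called without Gadd45a KO replicate 1 or WT replicate 3 (edgeR adjusted p 0.0249 to 0.0471). Over all genes 2687 were called, but 1300 without WT replicate 2, 1386 without Ing1 KO replicate 2, 1599 without WT replicate 3 and 1607 without DKO replicate 2. Between 28 and 32 of the effector genes were called in the fits without 1 library.

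**Figure D2:**
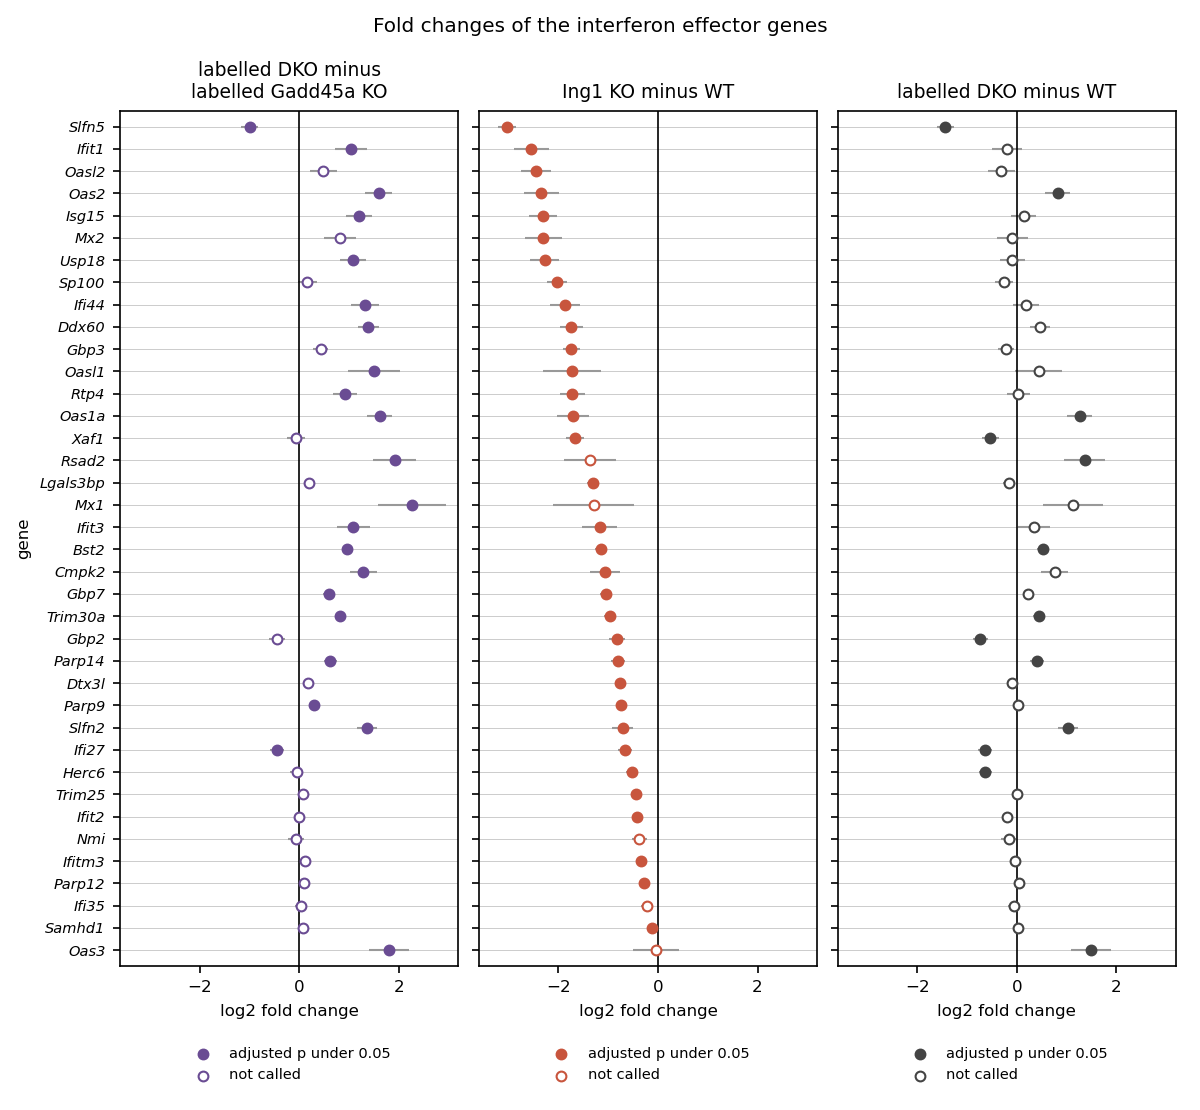
Log2 fold change with its SE (bars) of each gene in the labelled DKO over the labelled Gadd45a KO (left), in Ing1 KO over the WT (middle) and in the labelled DKO over the WT (right); filled points have an adjusted p under 0.05. All 38 points lie below 0 in the middle panel, whereas the left panel runs from -0.99 log2 for Slfn5 to 2.27 log2 for Mx1.

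Genes of the ISG15 system, a ubiquitin-like tag attached to proteins during the response, fell in Ing1 KO in 4 of 4 cases. Of all genes tested, 11.4% fell there. In the labelled DKO 3 of these 4 were higher than in Ing1 KO, where 14.9% of all genes were. Isg15 (ENSMUSG00000035692, chromosome 4), the tag itself, had 18.2, 17.5 and 26.9 CPM in the labelled DKO and 11, 7.21 and 9.09 CPM in the labelled Gadd45a KO. In Ing1 KO Isg15 had 3.13, 3.93 and 4.34 CPM, against 22.7, 21.6 and 12.5 CPM in the WT. Every Ing1 KO library lay below all others, the labelled Gadd45a KO came next without overlapping the WT, and the labelled DKO and WT ranges overlapped. Isg15 changed by -2.32 ± 0.28 log2 in Ing1 KO against the WT (SE, edgeR adjusted p = 0.000663), and by 1.20 ± 0.26 log2 in the labelled DKO against the labelled Gadd45a KO (SE, edgeR adjusted p = 0.00802). Trim25, a ubiquitin ligase that activates the RNA sensor RIG-I, had 85.4, 90.6 and 93.7 CPM in the labelled DKO and 89.9, 81.6 and 84.1 CPM in the labelled Gadd45a KO. In Ing1 KO Trim25 had 63, 62.5 and 72.2 CPM, against 89, 93.3 and 85.9 CPM in the WT. The Ing1 KO libraries of Trim25 lay below the other 9, which overlapped. Trim25 changed by -0.44 ± 0.06 log2 in Ing1 KO against the WT (SE, edgeR adjusted p = 0.000498). Usp18 is the protease that takes the tag off, and it also dampens the interferon receptor. Usp18 averaged 4.4 ± 1.41 CPM in the labelled DKO and 2.09 ± 0.147 CPM in the labelled Gadd45a KO (SD, n = 3 each). In Ing1 KO Usp18 averaged 0.965 ± 0.0978 CPM, against 4.68 ± 1.63 CPM in the WT. Usp18 changed by -2.28 ± 0.29 log2 in Ing1 KO against the WT (SE, edgeR adjusted p = 0.000334). Herc6, the main ligase for the tag in mice, averaged 4.72 ± 0.424 CPM in the labelled DKO and 4.91 ± 0.829 CPM in the labelled Gadd45a KO (SD, n = 3 each). In Ing1 KO Herc6 averaged 5.1 ± 0.577 CPM, against 7.33 ± 0.143 CPM in the WT. Every WT library of Herc6 lay above the other 9. Herc6 changed by -0.52 ± 0.13 log2 in Ing1 KO against the WT (SE, edgeR adjusted p = 0.0114), and by -0.63 ± 0.13 log2 in the labelled DKO against the WT (SE, edgeR adjusted p = 0.00343). Its interaction of 0.47 log2 was not called (edgeR adjusted p = 0.0955).

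The Ifit genes, whose proteins bind foreign RNA, fell in Ing1 KO in 3 of 3 cases, where 11.4% of all genes fell. Ifit1 (ENSMUSG00000034459, chromosome 19) had 5.18, 7.24 and 11 CPM in the labelled DKO and 4.71, 3.18 and 3.5 CPM in the labelled Gadd45a KO. In Ing1 KO Ifit1 had 1.19, 1.28 and 2.13 CPM, against 10.2, 10.6 and 6.14 CPM in the WT. The ranges of Ifit1 in Ing1 KO, the labelled Gadd45a KO and the labelled DKO followed each other upward without overlap, and those of the labelled DKO and the WT overlapped. Ifit1 changed by -2.54 ± 0.35 log2 in Ing1 KO against the WT (SE, edgeR adjusted p = 0.000911), and by 1.04 ± 0.32 log2 in the labelled DKO against the labelled Gadd45a KO (SE, edgeR adjusted p = 0.0341). Ifit2, the most abundant of the family per length in the WT, had 17.6, 20.8 and 22.5 CPM in the labelled DKO and 21.8, 18.9 and 20.5 CPM in the labelled Gadd45a KO. In Ing1 KO Ifit2 had 17.5, 16.9 and 18 CPM, against 21.6, 25.2 and 23.2 CPM in the WT. Replicate 1 of the labelled DKO lay within the Ing1 KO range for Ifit2, and the WT lay above Ing1 KO. Ifit2 changed by -0.42 ± 0.09 log2 in Ing1 KO against the WT (SE, edgeR adjusted p = 0.00499). Ifit3 had 1.98, 2.75 and 4 CPM in the labelled DKO and 1.8, 0.883 and 1.44 CPM in the labelled Gadd45a KO. In Ing1 KO Ifit3 had 1.01, 0.747 and 1.3 CPM, against 2.21, 3.13 and 1.5 CPM in the WT. Ing1 KO lay below the labelled DKO and the WT for Ifit3 but overlapped the labelled Gadd45a KO. Ifit3 changed by -1.17 ± 0.35 log2 in Ing1 KO against the WT (SE, edgeR adjusted p = 0.0315), and by 1.09 ± 0.34 log2 in the labelled DKO against the labelled Gadd45a KO (SE, edgeR adjusted p = 0.032). The fall of Ifit3 in Ing1 KO was not called without Ing1 KO replicate 1 or 2 or WT replicate 1 or 2 (0.0596 to 0.138). In the labelled DKO against the labelled Gadd45a KO, the rises of Ifit1 (0.0658 to 0.122) and Ifit3 (0.0646 to 0.135) were not called without replicate 2 or 3 of either group. The interaction of Ifit2, 0.41 log2, was not called without replicate 2 or 3 of the labelled DKO, the labelled Gadd45a KO or the WT, or without replicate 1 or 2 of Ing1 KO (0.0553 to 0.106).

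The Oas genes encode synthetases that turn double-stranded RNA into a signal for RNA decay, or relatives of them. Of these genes, 4 of 5 fell in Ing1 KO, where 11.4% of all genes did. Oasl2 (ENSMUSG00000029561, chromosome 5), the most abundant of the family per length in the WT, had 9.12, 7.84 and 13.3 CPM in the labelled DKO and 8.52, 5.7 and 7.49 CPM in the labelled Gadd45a KO. In Ing1 KO Oasl2 had 2.38, 2.22 and 2.3 CPM, against 15.2, 14.7 and 7.61 CPM in the WT. Its Ing1 KO libraries lay far below all others, and the other 3 groups overlapped. Oasl2 changed by -2.45 ± 0.30 log2 in Ing1 KO against the WT (SE, edgeR adjusted p = 0.000567). The labelled DKO differed from the labelled Gadd45a KO by 0.48 log2 for Oasl2, which was not called (edgeR adjusted p = 0.227). Oas1a averaged 2 ± 0.497 CPM in the labelled DKO and 0.65 ± 0.156 CPM in the labelled Gadd45a KO (SD, n = 3 each). In Ing1 KO Oas1a averaged 0.254 ± 0.0357 CPM, against 0.833 ± 0.229 CPM in the WT. Oas1a changed by -1.70 ± 0.32 log2 in Ing1 KO against the WT (SE, edgeR adjusted p = 0.00256), and by 1.26 ± 0.25 log2 in the labelled DKO against the WT (SE, edgeR adjusted p = 0.00269). Oas2 averaged 1.13 ± 0.0806 CPM in the labelled DKO and 0.373 ± 0.0858 CPM in the labelled Gadd45a KO (SD, n = 3 each). In Ing1 KO Oas2 averaged 0.123 ± 0.0244 CPM, against 0.634 ± 0.219 CPM in the WT. Oas2 changed by -2.35 ± 0.35 log2 in Ing1 KO against the WT (SE, edgeR adjusted p = 0.000768), and by 0.82 ± 0.26 log2 in the labelled DKO against the WT (SE, edgeR adjusted p = 0.0312). Both genes thus stood on opposite sides of the WT in Ing1 KO and in the labelled DKO. Oas3, at a low level, had 0.604, 0.474 and 0.504 CPM in the labelled DKO and 0.26, 0.0757 and 0.116 CPM in the labelled Gadd45a KO. In Ing1 KO Oas3 had 0.233, 0.145 and 0.168 CPM, against 0.218, 0.241 and 0.0902 CPM in the WT. All labelled DKO libraries of Oas3 lay above the other 9, which overlapped. The log2 fold change of Oas3 was -0.04 ± 0.47 in Ing1 KO against the WT (SE, edgeR adjusted p = 0.966), which was not called. Oas3 changed by 1.49 ± 0.40 log2 in the labelled DKO against the WT (SE, edgeR adjusted p = 0.0145). Oasl1, which in mice holds back translation of Irf7, averaged 0.817 ± 0.427 CPM in the labelled DKO and 0.288 ± 0.0333 CPM in the labelled Gadd45a KO (SD, n = 3 each). In Ing1 KO Oasl1 averaged 0.18 ± 0.108 CPM, against 0.6 ± 0.366 CPM in the WT. Oasl1 changed by -1.74 ± 0.58 log2 in Ing1 KO against the WT (SE, edgeR adjusted p = 0.0476), and by 2.17 ± 0.56 log2 in the labelled DKO against Ing1 KO (SE, edgeR adjusted p = 0.014).

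Several Oas calls lay near the threshold. The fall of Oasl1 in Ing1 KO was not called without DKO replicate 2, Ing1 KO replicate 1 or 2, WT replicate 1 or 2, or any 1 library of the labelled Gadd45a KO (0.0585 to 0.203). Its log2 fold change in these fits was -1.74 to -1.27, and -1.74 to -1.73 without a labelled Gadd45a KO library, against -1.74 with all 12. Its rise against Ing1 KO was not called without DKO replicate 3 or Ing1 KO replicate 2 (0.0618 to 0.062). Its rise of 1.51 log2 against the labelled Gadd45a KO was not called without DKO replicate 2 or 3, Ing1 KO replicate 1, WT replicate 1, or any 1 library of the labelled Gadd45a KO (0.0581 to 0.223), nor its interaction without WT replicate 2 (0.0515). The rise of Oas2 against the WT was not called by DESeq2 (0.101), nor without WT replicate 2 or 3 or any 1 labelled DKO library (0.0602 to 0.1003), where its log2 fold change was 0.58 to 0.89. That of Oas3 was not called without DKO replicate 1 or WT replicate 3 (0.0548 to 0.0573), and its rise against Ing1 KO not without Ing1 KO replicate 2 (0.0584).

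The interferon-induced GTPases include the Gbp proteins, which attack the vacuoles of intracellular pathogens, and the Mx proteins, which block viral replication. Of their genes, 4 of 5 fell in Ing1 KO, where 11.4% of all genes did. Gbp2 (ENSMUSG00000028270, chromosome 3) had 10.9, 10.2 and 14.3 CPM in the labelled DKO and 17.3, 14.5 and 16.4 CPM in the labelled Gadd45a KO. In Ing1 KO Gbp2 had 13.6, 11.2 and 8.59 CPM, against 20.3, 20.2 and 18.3 CPM in the WT. The WT libraries of Gbp2 were highest, the labelled Gadd45a KO came next, and the labelled DKO and Ing1 KO overlapped below them. Gbp2 changed by -0.82 ± 0.16 log2 in Ing1 KO against the WT (SE, edgeR adjusted p = 0.00415), and by -0.73 ± 0.16 log2 in the labelled DKO against the WT (SE, edgeR adjusted p = 0.00598). Its interaction of 0.38 log2 was not called (edgeR adjusted p = 0.267). Unlike Gbp2, both Gbp3 and Gbp7 were called as higher in the labelled DKO than in Ing1 KO. Gbp3 averaged 5.88 ± 1.18 CPM in the labelled DKO and 4.37 ± 0.593 CPM in the labelled Gadd45a KO (SD, n = 3 each). In Ing1 KO Gbp3 averaged 2.04 ± 0.0857 CPM, against 6.82 ± 1.03 CPM in the WT. Gbp7 averaged 13.4 ± 0.982 CPM in the labelled DKO and 8.91 ± 1.23 CPM in the labelled Gadd45a KO (SD, n = 3 each). In Ing1 KO Gbp7 averaged 5.54 ± 0.373 CPM, against 11.4 ± 1.09 CPM in the WT. The changes were -1.74 ± 0.17 log2 for Gbp3 and -1.04 ± 0.11 log2 for Gbp7 in Ing1 KO against the WT (SE, edgeR adjusted p = 7.65e-05 and 0.00012). Mx2 (ENSMUSG00000023341, chromosome 16) had 0.892, 1.04 and 1.3 CPM in the labelled DKO and 0.807, 0.353 and 0.672 CPM in the labelled Gadd45a KO. In Ing1 KO Mx2 had 0.233, 0.12 and 0.336 CPM, against 1.28, 1.31 and 0.842 CPM in the WT. Ing1 KO was lowest, the labelled Gadd45a KO came next, and the labelled DKO and the WT overlapped above both. Mx2 changed by -2.31 ± 0.37 log2 in Ing1 KO against the WT (SE, edgeR adjusted p = 0.00115).

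Mx1 was at the edge of detection. Mx1 had 0.575, 0.253 and 0.398 CPM in the labelled DKO and 0.13, 0.0757 and 0.0464 CPM in the labelled Gadd45a KO. In Ing1 KO Mx1 had 0, 0.12 and 0.0959 CPM, against 0.163, 0.348 and 0.0301 CPM in the WT. The value of 0 in Ing1 KO replicate 1 allows up to 0.0774 CPM (3 counts). The labelled DKO libraries of Mx1 lay above those of Ing1 KO and the labelled Gadd45a KO, and the WT overlapped all groups. Mx1 changed by 2.43 ± 0.70 log2 in the labelled DKO against Ing1 KO (SE, edgeR adjusted p = 0.0224), and by 2.27 ± 0.69 log2 in the labelled DKO against the labelled Gadd45a KO (SE, edgeR adjusted p = 0.0266). The call against Ing1 KO was lost without DKO replicate 1 or Ing1 KO replicate 1 (0.0505 to 0.0894). That against the labelled Gadd45a KO was lost without DKO replicate 1 or 3 or Gadd45a KO replicate 2 or 3 (0.0562 to 0.106). Its interaction was lost without those same 4 libraries, Ing1 KO replicate 2 or WT replicate 2 (0.0543 to 0.165). Laboratory strains often carry defective Mx alleles, and the annotation lists Mx2 as a polymorphic pseudogene.

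**Figure D3:**
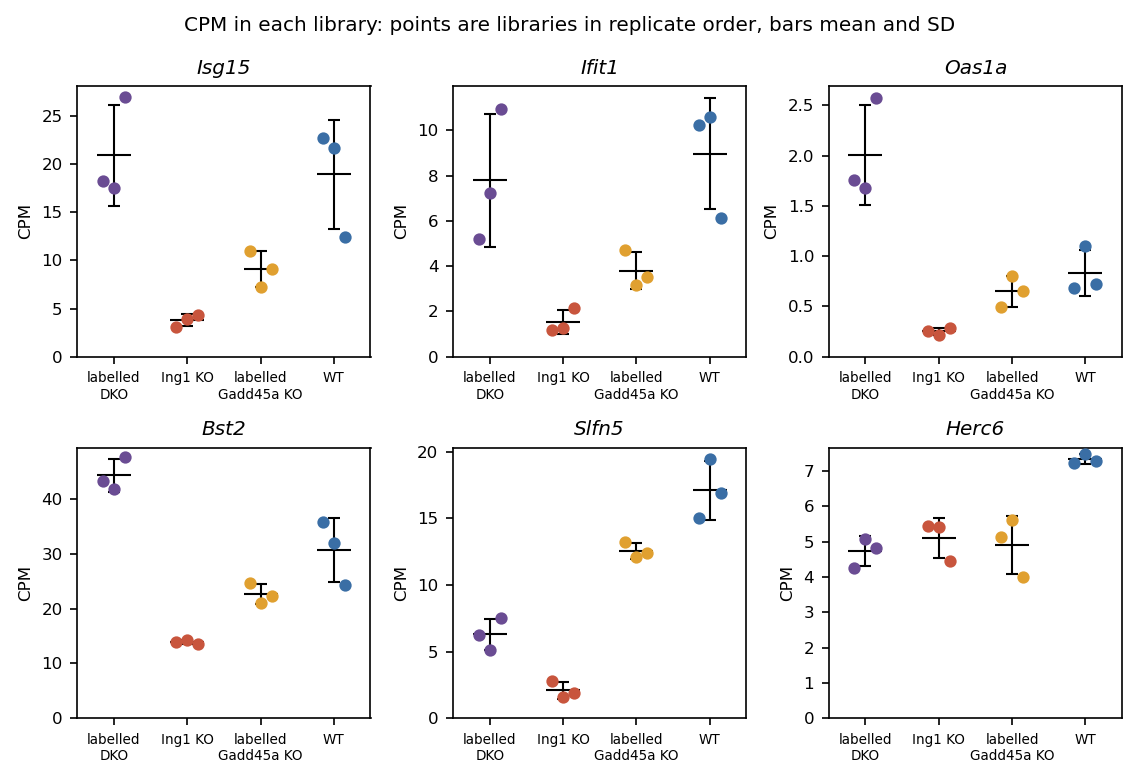
CPM of 6 of the genes in each library, with the labelled DKO, Ing1 KO, the labelled Gadd45a KO and the WT from left to right on the horizontal axis; points are libraries in replicate order and bars the mean and SD of 3 libraries. Isg15 and Ifit1 overlap between the labelled DKO and the WT, Oas1a and Bst2 are highest in the labelled DKO, Slfn5 has 4 separate ranges, and Herc6 is highest in the WT.

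Genes for membrane and secreted effectors fell in Ing1 KO in 4 of 4 cases, where 11.4% of all genes fell. Ifitm3, which stops viruses from leaving endosomes, was the most abundant of the 38 per length, at 354 CPM per kb in the WT. The next, Lgals3bp, had 47.4 CPM per kb and the lowest, Oas3, had 0.0259 CPM per kb. Ifitm3 (ENSMUSG00000025492, chromosome 7) had 235, 247 and 224 CPM in the labelled DKO and 209.5, 225 and 221 CPM in the labelled Gadd45a KO. In Ing1 KO Ifitm3 had 214, 179 and 177 CPM, against 251, 232 and 237 CPM in the WT. Each Ing1 KO library of Ifitm3 lay below each WT library, but replicate 1 of Ing1 KO lay within the range of the labelled Gadd45a KO. Ifitm3 changed by -0.33 ± 0.07 log2 in Ing1 KO against the WT (SE, edgeR adjusted p = 0.00391). Bst2 (ENSMUSG00000046718, chromosome 8), or tetherin, which holds budding virus at the cell surface, had 43.3, 41.9 and 47.6 CPM in the labelled DKO and 24.7, 21 and 22.3 CPM in the labelled Gadd45a KO. In Ing1 KO Bst2 had 13.8, 14.2 and 13.5 CPM, against 35.7, 31.9 and 24.3 CPM in the WT. Its labelled DKO libraries lay above all others and its Ing1 KO libraries below all others. Bst2 changed by -1.15 ± 0.12 log2 in Ing1 KO against the WT (SE, edgeR adjusted p = 0.000164), and by 0.53 ± 0.11 log2 in the labelled DKO against the WT (SE, edgeR adjusted p = 0.00534). Rtp4, a receptor chaperone, had 3.05, 3.03 and 5.2 CPM in the labelled DKO and 2.32, 1.82 and 1.83 CPM in the labelled Gadd45a KO. In Ing1 KO Rtp4 had 1.03, 1.18 and 1.13 CPM, against 4.6, 3.77 and 2.68 CPM in the WT. Ing1 KO was lowest for Rtp4, then the labelled Gadd45a KO, then the overlapping labelled DKO and WT. Rtp4 changed by -1.72 ± 0.25 log2 in Ing1 KO against the WT (SE, edgeR adjusted p = 0.000636), and by 0.93 ± 0.24 log2 in the labelled DKO against the labelled Gadd45a KO (SE, edgeR adjusted p = 0.0115). The second call was lost without DKO replicate 3 (0.0613). Lgals3bp, a secreted glycoprotein that binds galectins, averaged 121 ± 20.9 CPM in the labelled DKO and 105 ± 0.592 CPM in the labelled Gadd45a KO (SD, n = 3 each). In Ing1 KO Lgals3bp averaged 54.7 ± 4.42 CPM, against 135 ± 15.3 CPM in the WT. Lgals3bp changed by -1.30 ± 0.12 log2 in Ing1 KO against the WT (SE, edgeR adjusted p = 0.000132).

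Of the 3 genes that alter nucleotide pools, Cmpk2 and Samhd1 fell in Ing1 KO and Rsad2 was not called. The share of all genes that fell there was 11.4%. Rsad2 (ENSMUSG00000020641, chromosome 12), or viperin, which makes a chain-terminating nucleotide, had 1.01, 1.33 and 2.1 CPM in the labelled DKO and 0.339, 0.605 and 0.232 CPM in the labelled Gadd45a KO. In Ing1 KO Rsad2 had 0.181, 0.145 and 0.336 CPM, against 0.572, 0.856 and 0.271 CPM in the WT. All labelled DKO libraries of Rsad2 lay above the other 9, and the other 3 groups overlapped. The log2 fold change of Rsad2 was -1.36 ± 0.52 in Ing1 KO against the WT (SE, edgeR adjusted p = 0.0779), which was not called. Rsad2 changed by 1.37 ± 0.41 log2 in the labelled DKO against the WT (SE, edgeR adjusted p = 0.0269), and by 1.92 ± 0.43 log2 in the labelled DKO against the labelled Gadd45a KO (SE, edgeR adjusted p = 0.00566). Cmpk2, a mitochondrial nucleotide kinase, averaged 1.64 ± 0.131 CPM in the labelled DKO and 0.667 ± 0.231 CPM in the labelled Gadd45a KO (SD, n = 3 each). In Ing1 KO Cmpk2 averaged 0.455 ± 0.148 CPM, against 0.961 ± 0.2 CPM in the WT. Cmpk2 changed by -1.07 ± 0.31 log2 in Ing1 KO against the WT (SE, edgeR adjusted p = 0.0228). Samhd1 (ENSMUSG00000027639, chromosome 2), which breaks down the building blocks of DNA, had 99.2, 101 and 107 CPM in the labelled DKO and 97.9, 97.4 and 95.9 CPM in the labelled Gadd45a KO. In Ing1 KO Samhd1 had 94.7, 92.7 and 88 CPM, against 96.6, 102 and 102 CPM in the WT. The Ing1 KO libraries of Samhd1 lay just below the other 9. Samhd1 changed by -0.13 ± 0.04 log2 in Ing1 KO against the WT (SE, edgeR adjusted p = 0.0489). That call was lost with DESeq2 (0.0557), with DESeq2's size factors in edgeR (0.0628) and in 9 of the 12 fits without 1 library, all but those without DKO replicate 3, Ing1 KO replicate 1 or WT replicate 1 (0.0509 to 0.170). Its interaction of 0.20 log2 was lost in all but the fits without DKO replicate 1, Ing1 KO replicate 1 or WT replicate 1 (0.0571 to 0.0866). Its rise of 0.16 log2 against Ing1 KO was lost without DKO replicate 3 or Ing1 KO replicate 3 (0.0632 to 0.0684). The fall of Cmpk2 was not called without Ing1 KO replicate 1 or 2 or WT replicate 1 or 2 (0.0503 to 0.0955). For Rsad2, the rise over the WT was not called without DKO replicate 2 or 3 or WT replicate 1 or 3 (0.0505 to 0.117), and the change in Ing1 KO was called without WT replicate 3 (0.0401).

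The ADP-ribosylation group holds Parp9 and its partner ligase Dtx3l, which act as a complex, and the transferases Parp12 and Parp14. Of these genes, 4 of 4 fell in Ing1 KO, where 11.4% of all genes did. Parp12 (ENSMUSG00000038507, chromosome 6) had 31.9, 33 and 31.8 CPM in the labelled DKO and 32.4, 27.7 and 30.4 CPM in the labelled Gadd45a KO. In Ing1 KO Parp12 had 24.4, 25.9 and 26.2 CPM, against 32.1, 32.7 and 28.7 CPM in the WT. Its Ing1 KO libraries lay below the other 9, which overlapped. Parp12 changed by -0.29 ± 0.06 log2 in Ing1 KO against the WT (SE, edgeR adjusted p = 0.00688). Parp14 (ENSMUSG00000034422, chromosome 16) had 17.5, 16 and 23.3 CPM in the labelled DKO and 11.8, 12.4 and 12.7 CPM in the labelled Gadd45a KO. In Ing1 KO Parp14 had 8.4, 6.96 and 9.11 CPM, against 15.1, 15.1 and 12.7 CPM in the WT. The labelled DKO libraries of Parp14 were highest and the Ing1 KO libraries lowest, without overlap with the other groups. Parp14 changed by -0.81 ± 0.14 log2 in Ing1 KO against the WT (SE, edgeR adjusted p = 0.00172), and by 0.41 ± 0.13 log2 in the labelled DKO against the WT (SE, edgeR adjusted p = 0.0396). The second was not called without DKO replicate 1 or 3, Gadd45a KO replicate 2 or 3, or any 1 WT library (0.0542 to 0.174). Parp9 averaged 27.9 ± 4.02 CPM in the labelled DKO and 22.7 ± 1.35 CPM in the labelled Gadd45a KO (SD, n = 3 each). In Ing1 KO Parp9 averaged 16.3 ± 0.783 CPM, against 27.3 ± 2.2 CPM in the WT. Dtx3l averaged 22.2 ± 3.77 CPM in the labelled DKO and 19.6 ± 1.34 CPM in the labelled Gadd45a KO (SD, n = 3 each). In Ing1 KO Dtx3l averaged 14.1 ± 0.774 CPM, against 23.9 ± 1.2 CPM in the WT. The changes were -0.75 ± 0.09 log2 for Parp9 and -0.76 ± 0.10 log2 for Dtx3l in Ing1 KO against the WT (SE, edgeR adjusted p = 0.000296 and 0.000375). Parp9 and Dtx3l overlap on opposite strands and the library kit does not mark strand, so their counts cannot be fully told apart. The rise of Parp9 in the labelled DKO over the labelled Gadd45a KO, 0.30 log2, was not called without DKO replicate 3 or Gadd45a KO replicate 1 or 2 (0.1045 to 0.1447).

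The 2 Schlafen genes fell in Ing1 KO, where 11.4% of all genes did, and parted in the labelled DKO. Slfn5 (ENSMUSG00000054404, chromosome 11), a nuclear Schlafen, had 6.24, 5.15 and 7.51 CPM in the labelled DKO and 13.3, 12.1 and 12.4 CPM in the labelled Gadd45a KO. In Ing1 KO Slfn5 had 2.79, 1.57 and 1.92 CPM, against 15, 19.4 and 16.9 CPM in the WT. The groups formed 4 separate ranges, with Ing1 KO lowest, then the labelled DKO, the labelled Gadd45a KO and the WT. Slfn5 had the largest fall of the 38 genes, and its promoter is the first shown above. Slfn5 changed by -3.04 ± 0.19 log2 in Ing1 KO against the WT (SE, edgeR adjusted p = 1e-05), and by -1.44 ± 0.17 log2 in the labelled DKO against the WT (SE, edgeR adjusted p = 0.000157), and by -0.99 ± 0.17 log2 in the labelled DKO against the labelled Gadd45a KO (SE, edgeR adjusted p = 0.00134). Slfn5 was thus lower in the group without Ing1 on both labelled Gadd45a backgrounds, and by less on the labelled Gadd45a KO background, with an interaction of 2.04 ± 0.25 log2 (SE, edgeR adjusted p = 0.00101). Slfn2 (ENSMUSG00000072620, chromosome 11), which keeps mouse T cells quiescent, had 25.2, 23.9 and 27.4 CPM in the labelled DKO and 7.27, 12.3 and 10.3 CPM in the labelled Gadd45a KO. In Ing1 KO Slfn2 had 6.38, 7.01 and 9.47 CPM, against 10, 14.8 and 12.5 CPM in the WT. Its labelled DKO libraries lay above all others, and its Ing1 KO libraries lay below the WT and overlapped the labelled Gadd45a KO. Slfn2 changed by -0.71 ± 0.21 log2 in Ing1 KO against the WT (SE, edgeR adjusted p = 0.033), and by 1.03 ± 0.20 log2 in the labelled DKO against the WT (SE, edgeR adjusted p = 0.00376). The fall was not called without Gadd45a KO replicate 3, Ing1 KO replicate 1 or 2, or WT replicate 2 or 3 (0.05001 to 0.127). Slfn5 overlaps the antisense gene Slfn5os, and reads from the pair cannot be told apart without strand.

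Among the nuclear and adaptor proteins, Sp100 and Trim30a fell in Ing1 KO, and Nmi and Ifi35, which bind each other, were not called. The share of all genes that fell there was 11.4%. Sp100 (ENSMUSG00000026222, chromosome 1), a part of nuclear bodies that restrain viral genomes, had 3.94, 3.06 and 5.17 CPM in the labelled DKO and 3.85, 3.25 and 3.78 CPM in the labelled Gadd45a KO. In Ing1 KO Sp100 had 1.29, 1.25 and 1.03 CPM, against 4.93, 5.64 and 4.03 CPM in the WT. Its Ing1 KO libraries lay below the other 9, and the labelled DKO overlapped both other groups. Sp100 changed by -2.03 ± 0.20 log2 in Ing1 KO against the WT (SE, edgeR adjusted p = 8.34e-05). The labelled DKO differed from the labelled Gadd45a KO by 0.17 log2 for Sp100, which was not called (edgeR adjusted p = 0.547). Trim30a (ENSMUSG00000030921, chromosome 7), which in mice restrains Toll-like receptor signalling, had 12.8, 12.4 and 15 CPM in the labelled DKO and 7.27, 8.17 and 7.33 CPM in the labelled Gadd45a KO. In Ing1 KO Trim30a had 5.22, 4.17 and 5.76 CPM, against 10.2, 9.81 and 9.59 CPM in the WT. The ranges of Trim30a did not overlap, with the labelled DKO highest, then the WT, the labelled Gadd45a KO and Ing1 KO. Trim30a changed by -0.97 ± 0.12 log2 in Ing1 KO against the WT (SE, edgeR adjusted p = 0.000205), and by 0.44 ± 0.11 log2 in the labelled DKO against the WT (SE, edgeR adjusted p = 0.0094). Ifi35, the most abundant of the 4 per length in the WT, had 13.3, 14.2 and 14.2 CPM in the labelled DKO and 14.2, 11.6 and 14.6 CPM in the labelled Gadd45a KO. In Ing1 KO Ifi35 had 11.6, 12.3 and 13.2 CPM, against 15.4, 16.3 and 11.5 CPM in the WT. The WT range of Ifi35 overlapped those of the other groups. The log2 fold change of Ifi35 was -0.22 ± 0.12 in Ing1 KO against the WT (SE, edgeR adjusted p = 0.199), which was not called. It was called without WT replicate 3 (0.0275). Nmi averaged 4.44 ± 0.968 CPM in the labelled DKO and 4.65 ± 0.635 CPM in the labelled Gadd45a KO (SD, n = 3 each). In Ing1 KO Nmi averaged 3.85 ± 0.166 CPM, against 4.98 ± 0.576 CPM in the WT. The log2 fold change of Nmi was -0.37 ± 0.16 in Ing1 KO against the WT (SE, edgeR adjusted p = 0.105), which was not called.

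The last 4 genes, the helicase gene Ddx60, the apoptosis gene Xaf1 and the interferon-induced Ifi27 and Ifi44, fell in Ing1 KO. The share of all genes that fell there was 11.4%. Ifi44 (ENSMUSG00000028037, chromosome 3) had 1.9, 1.77 and 2.78 CPM in the labelled DKO and 0.937, 0.58 and 1.07 CPM in the labelled Gadd45a KO. In Ing1 KO Ifi44 had 0.594, 0.554 and 0.408 CPM, against 2.15, 2.25 and 1.26 CPM in the WT. Ing1 KO overlapped the labelled Gadd45a KO narrowly, and both lay below the overlapping labelled DKO and WT ranges. Ifi44 changed by -1.87 ± 0.30 log2 in Ing1 KO against the WT (SE, edgeR adjusted p = 0.00118). Ddx60 (ENSMUSG00000037921, chromosome 8) had 1.67, 1.96 and 2.23 CPM in the labelled DKO and 0.833, 0.656 and 0.742 CPM in the labelled Gadd45a KO. In Ing1 KO Ddx60 had 0.491, 0.385 and 0.384 CPM, against 1.31, 1.77 and 1.14 CPM in the WT. Its ranges followed each other upward without overlap in Ing1 KO, the labelled Gadd45a KO and the WT, and the labelled DKO overlapped the WT. Ddx60 changed by -1.74 ± 0.23 log2 in Ing1 KO against the WT (SE, edgeR adjusted p = 0.0004), and by 1.39 ± 0.21 log2 in the labelled DKO against the labelled Gadd45a KO (SE, edgeR adjusted p = 0.000537). Ifi27 (ENSMUSG00000064215, chromosome 12), a small membrane protein, had 46.5, 35.4 and 45.7 CPM in the labelled DKO and 55.1, 59.7 and 59.5 CPM in the labelled Gadd45a KO. In Ing1 KO Ifi27 had 51.1, 40.4 and 34 CPM, against 66.8, 68.2 and 63.9 CPM in the WT. The WT libraries of Ifi27 were highest, then the labelled Gadd45a KO, and the labelled DKO and Ing1 KO overlapped below. Ifi27 changed by -0.66 ± 0.14 log2 in Ing1 KO against the WT (SE, edgeR adjusted p = 0.00688), and by -0.64 ± 0.14 log2 in the labelled DKO against the WT (SE, edgeR adjusted p = 0.00677), and by -0.45 ± 0.14 log2 in the labelled DKO against the labelled Gadd45a KO (SE, edgeR adjusted p = 0.0353). The third was not called without DKO replicate 2 or 3, Ing1 KO replicate 2, WT replicate 1 or 2, or any 1 Gadd45a KO library (0.0504 to 0.0985). Xaf1, which binds an inhibitor of apoptosis, averaged 6.44 ± 1.84 CPM in the labelled DKO and 6.77 ± 0.433 CPM in the labelled Gadd45a KO (SD, n = 3 each). In Ing1 KO Xaf1 averaged 2.95 ± 0.305 CPM, against 9.34 ± 1.48 CPM in the WT. Xaf1 changed by -1.66 ± 0.18 log2 in Ing1 KO against the WT (SE, edgeR adjusted p = 0.000157), and by -0.53 ± 0.17 log2 in the labelled DKO against the WT (SE, edgeR adjusted p = 0.0381). The second was not called without DKO replicate 1 or 2, Gadd45a KO replicate 3, or WT replicate 1 or 2 (0.0541 to 0.1398).

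Within groups, many of the effector genes had their extreme values in the same library. Replicate 3 was the lowest WT library for 31 of the 38 genes (37.3% of all genes tested) and the highest labelled DKO library for 32 of the 38 (33.8% of all genes). Their mean log2 CPM was 2.88, 2.87 and 3.25 in the labelled DKO and 2.49, 2.27 and 2.39 in the labelled Gadd45a KO. It was 1.68, 1.59 and 1.75 in Ing1 KO, against 2.97, 3.07 and 2.55 in the WT. The Ing1 KO libraries lay below all others, and those of the labelled Gadd45a KO below every WT and labelled DKO library. For the 22 genes with a mean of at least 5 CPM, the median coefficient of variation was 13.4% in the labelled DKO, 9.3% in Ing1 KO, 6.94% in the labelled Gadd45a KO and 8.74% in the WT. Over all genes of that level it was 4.53%, 4.89%, 4.12% and 5.39% in the same groups. Between replicates the chi-square of the counts per degree of freedom was 5.27 to 31.26, where counting noise alone gives about 1. The mean of Ing1 KO was the lowest of the 4 groups for 36 of the 38 genes (28.9% of all genes), the exceptions being Herc6 and Oas3. The most common order of group means, in 20 genes, was Ing1 KO, the labelled Gadd45a KO, the WT and the labelled DKO, from low to high. Members of the Oas, Ifit, Gbp, Mx, Slfn and Trim30 families have near copies, and how reads were split between copies is not given here, so single values in these families are less certain. Oasl1 and Ifi35 also overlap genes on the other strand, and Sp100 overlaps a small RNA gene.

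**Figure D4:**
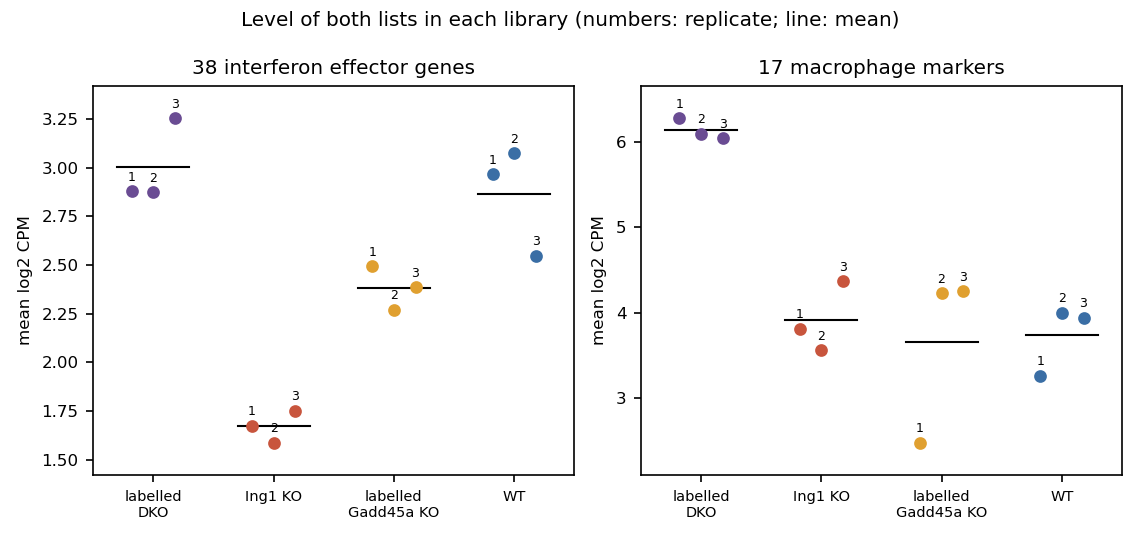
Mean log2 CPM in each library, over the 38 effector genes (left) and the 17 macrophage markers (right), with the labelled DKO, Ing1 KO, the labelled Gadd45a KO and the WT from left to right; numbers are replicates and lines group means. The effector genes are lowest in the 3 Ing1 KO libraries, whereas the macrophage markers are high in the 3 labelled DKO libraries and overlap among the other groups.

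Reads from the 8 interferon genes looked at were at or near 0. Of the 10 on the list, Ifna1 and Ifna5 had no match, and interferon genes outside it were not looked at. Ifnb1 had 3 reads and Ifne 1 read over all 12 libraries, and Ifna2, Ifna4, Ifnk, Ifng, Ifnl2 and Ifnl3 had 0. A count of 0 allows up to 0.07 to 0.0953 CPM per library (3 counts, counting error only), and none of the 8 passed the filter for testing. Of the 8 receptor and kinase genes tested, 1 fell in Ing1 KO, the kinase gene Jak2, a share near the 11.4% of all genes that fell. Against Ing1 KO, 5 of the 8 were higher in the labelled DKO (Ifnar1, Ifnar2, Ifngr1, Il10rb and Jak2), where 14.9% of all genes were. The interaction of the same 5 was called above 0, as it was for 10.4% of all genes. Jak2 averaged 111 ± 8.52 CPM in Ing1 KO and 156 ± 11.3 CPM in the WT (SD, n = 3 each). Jak2 changed by -0.49 ± 0.07 log2 in Ing1 KO against the WT (SE, edgeR adjusted p = 0.000685). Il10rb, a receptor chain shared by type III interferons, changed by 0.58 ± 0.08 log2 in the labelled DKO against the WT (SE, edgeR adjusted p = 0.000399). Ifnar2, of the type I receptor, was higher in the labelled DKO than in Ing1 KO, and it changed by 0.24 ± 0.05 log2 in the labelled DKO against Ing1 KO (SE, edgeR adjusted p = 0.00584). Both Il10rb and Ifnar2 overlap the gene Gm21970 on the same strand. Ifnar1 averaged 117 ± 0.504 CPM in the labelled DKO and 112 ± 3.16 CPM in the labelled Gadd45a KO (SD, n = 3 each). In Ing1 KO Ifnar1 averaged 107 ± 0.899 CPM, against 114 ± 1.68 CPM in the WT. The log2 fold change of Ifnar1 was -0.09 ± 0.03 in Ing1 KO against the WT (SE, edgeR adjusted p = 0.0805), which was not called.

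Some of the transcription factors that carry the signal also fell in Ing1 KO. Of 9 STAT and IRF genes, 3 fell (Stat2, Irf9 and Irf7) and none rose, where 11.4% of all genes fell. In the labelled DKO 6 of the 9 were higher than in Ing1 KO, where 14.9% of all genes were. Irf9, the DNA-binding partner of Stat2, averaged 35 ± 2.65 CPM in the labelled DKO and 29.5 ± 2.39 CPM in the labelled Gadd45a KO (SD, n = 3 each). In Ing1 KO Irf9 averaged 22.1 ± 0.548 CPM, against 36.9 ± 5.12 CPM in the WT. Irf9 overlaps Rnf31 on the same strand, so their counts may not be fully told apart. The changes were -0.74 ± 0.09 log2 for Irf9 and -0.70 ± 0.13 log2 for Stat2 in Ing1 KO against the WT (SE, edgeR adjusted p = 0.000344 and 0.00402). Irf7, which amplifies interferon production, averaged 8.59 ± 1.57 CPM in the labelled DKO and 4.56 ± 0.764 CPM in the labelled Gadd45a KO (SD, n = 3 each). In Ing1 KO Irf7 averaged 2.9 ± 0.173 CPM, against 7.76 ± 3.03 CPM in the WT. Irf7 changed by -1.42 ± 0.27 log2 in Ing1 KO against the WT (SE, edgeR adjusted p = 0.0042), and by 1.57 ± 0.27 log2 in the labelled DKO against Ing1 KO (SE, edgeR adjusted p = 0.00237). Irf8 and Irf5, both abundant in macrophages, were higher in the labelled DKO than in the WT. Their changes were 2.24 ± 0.39 log2 for Irf8 and 1.11 ± 0.19 log2 for Irf5 in the labelled DKO against the WT (SE, edgeR adjusted p = 0.00244 and 0.00142). Irf1 was lower there, at -0.22 ± 0.06 log2 (SE, edgeR adjusted p = 0.0131), and the other 6 were not called. Of all genes, 15.6% were higher and 10.3% lower in that comparison.

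Of 13 genes that sense nucleic acids or pass on that signal, 7 fell in Ing1 KO and none rose, where 11.4% of all genes fell. In the labelled DKO 10 of the 13 were higher than in Ing1 KO, where 14.9% of all genes were. Ifih1 and Rigi are cytosolic sensors of viral RNA, and Dhx58 is their regulator. Their changes were -0.87 ± 0.14 log2 for Ifih1, -0.51 ± 0.07 log2 for Rigi and -1.30 ± 0.21 log2 for Dhx58 in Ing1 KO against the WT (SE, edgeR adjusted p = 0.000955, 0.000503 and 0.00102). Eif2ak2, the kinase PKR, averaged 68.4 ± 5.26 CPM in the labelled DKO and 48.9 ± 3 CPM in the labelled Gadd45a KO (SD, n = 3 each). In Ing1 KO Eif2ak2 averaged 46.4 ± 3.04 CPM, against 62.1 ± 3.13 CPM in the WT. Eif2ak2 changed by 0.56 ± 0.07 log2 in the labelled DKO against Ing1 KO (SE, edgeR adjusted p = 0.000205). Tlr7, an endosomal sensor of macrophages and dendritic cells, averaged 24.1 ± 1.72 CPM in the labelled DKO and 4.61 ± 1.45 CPM in the WT (SD, n = 3 each). Tlr7 changed by 2.39 ± 0.42 log2 in the labelled DKO against the WT (SE, edgeR adjusted p = 0.00333). Of 6 brakes of the pathway, none was called in Ing1 KO by edgeR, where the smallest adjusted p was 0.0518. An unadjusted p under 0.05 was found for 3 of them, against 36.3% of all genes. Usp18, which fell in Ing1 KO, is counted with the effector genes and not here. Ptpn6, a phosphatase of blood cells, and Pias1 were higher in the labelled DKO than in the WT, where 15.6% of all genes were. Their changes were 2.15 ± 0.38 log2 for Ptpn6 and 0.14 ± 0.05 log2 for Pias1 in the labelled DKO against the WT (SE, edgeR adjusted p = 0.00351 and 0.049).

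A further list of interferon-stimulated genes, also chosen with earlier results of these data known, had 44 members that were tested. Of these, 28 fell in Ing1 KO against the WT and none rose, where 11.4% of all genes fell. The median log2 fold change was -0.51. In the labelled DKO against Ing1 KO 31 were higher and none lower, with a median of 0.55, where 14.9% of all genes were higher. Against the WT 5 were higher and 6 lower, with a median of -0.01, and both counts are near the 15.6% and 10.3% of all genes called in those directions. In the labelled Gadd45a KO none of the 44 was called by edgeR, and 39 had a negative log2 fold change. An unadjusted p under 0.05 was found for 20 of them, against 8.82% of all genes. Igtp, an immunity-related GTPase, averaged 7.01 ± 0.774 CPM in the labelled DKO and 5.26 ± 0.281 CPM in the labelled Gadd45a KO (SD, n = 3 each). In Ing1 KO Igtp averaged 2.45 ± 0.337 CPM, against 7.09 ± 0.773 CPM in the WT. Igtp changed by -1.53 ± 0.13 log2 in Ing1 KO against the WT (SE, edgeR adjusted p = 3.06e-05). For Irgm2, of the same family, and Lgals9, the gene of galectin-9, the changes were -1.10 ± 0.13 log2 for Irgm2 and -0.68 ± 0.07 log2 for Lgals9 in Ing1 KO against the WT (SE, edgeR adjusted p = 0.000276 and 9.02e-05). Igtp and Irgm2 overlap each other on the same strand, so their counts may not be fully told apart. Uba7 activates Isg15 for attachment, and Psmb8 is a subunit of the immunoproteasome. Their changes were 0.90 ± 0.11 log2 for Uba7 and 1.20 ± 0.15 log2 for Psmb8 in the labelled DKO against Ing1 KO (SE, edgeR adjusted p = 0.000224 and 0.000262). The chemokine gene Ccl5 had 1.04, 1.23 and 1.25 CPM in the labelled DKO and 0.163, 0.134 and 0.211 CPM in the WT. Ccl5 changed by 2.78 ± 0.35 log2 in the labelled DKO against the WT (SE, edgeR adjusted p = 0.000193).

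**Figure D5:**
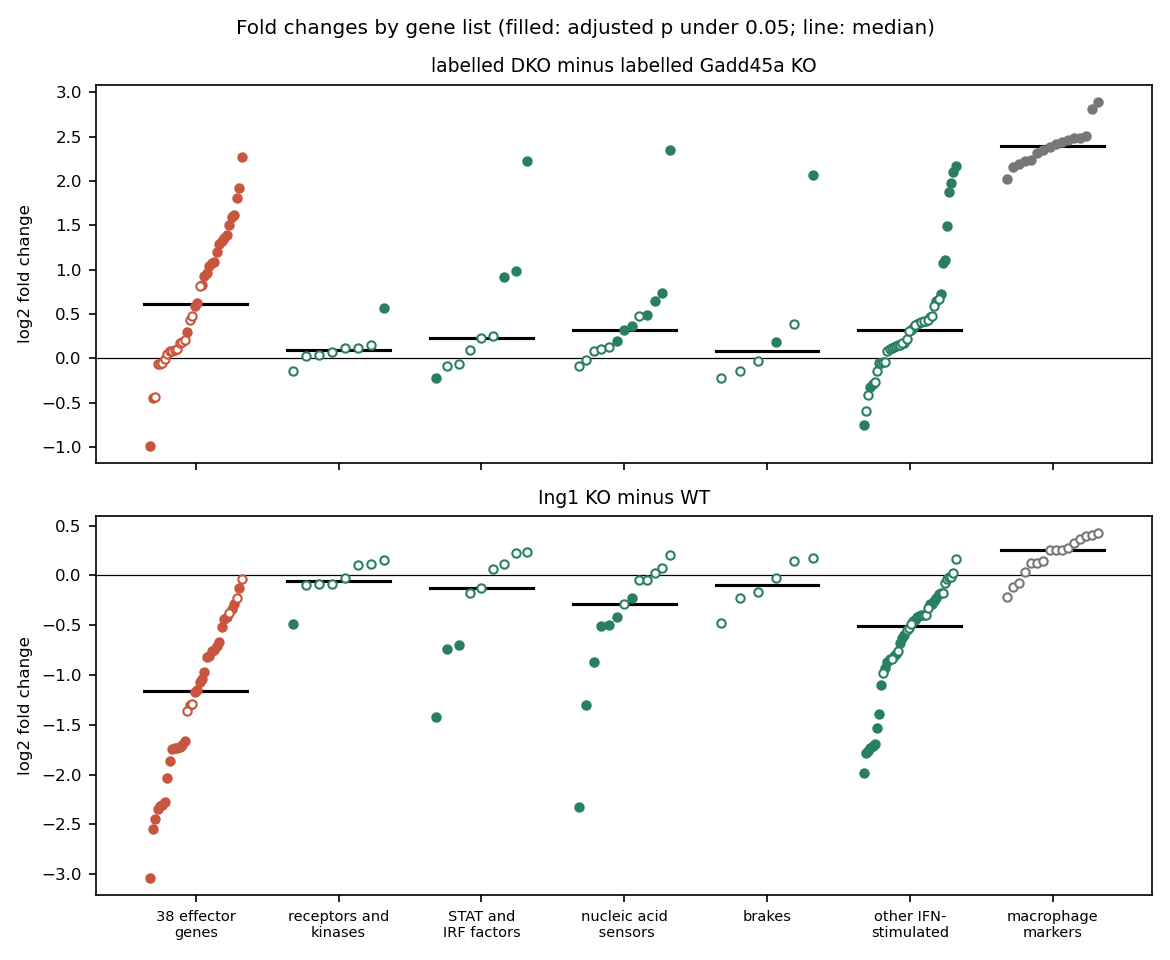
Log2 fold changes of single genes by list, sorted within a list, in the labelled DKO over the labelled Gadd45a KO (top) and in Ing1 KO over the WT (bottom); filled points have an adjusted p under 0.05 and lines are medians. In the bottom panel the 38 effector genes (median -1.16) and the other interferon-stimulated genes (median -0.51) lie mostly below 0, and the macrophage markers (median 0.25) mostly above it.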

How the data were processed

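Polyadenylated RNA of 12 MEF libraries in 4 groups of 3 was sequenced in single reads from libraries without strand information, per the labels' protocols. The authors deposited raw read counts per Ensembl gene, whole numbers with no normalization. The submitters' processing notes name TopHat2 2.0.9, Bowtie2 2.1.0, HTSeq 0.5.4, DESeq and the genome mm9 (NCBIM37). No source used here gives the strand option of HTSeq. The 5 summary lines of each library, for what was not counted in a gene, were left out. Together they came to 23.9% to 24.9% of a library, and alignments that were not unique alone to 17.9% to 19.1%. Symbols were found for 32919 of 37991 identifiers.

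The counts were analysed with edgeR 4.0.16 in R 4.3.3, with TMM factors (0.979 to 1.01), filterByExpr and a robust quasi-likelihood fit of all 12 libraries in 4 groups. Tests were two-sided with 8 residual degrees of freedom, and the biological coefficient of variation was 8.17%. Of all identifiers, 13321 had no count and 15098 were tested. Calls were made at a Benjamini-Hochberg adjusted p under 0.05 over all genes tested. CPM levels have no prior count, and mean log2 CPM has a prior count of 2. DESeq2 1.42.0 and other settings were alternatives. Floors cover counting error only. Promoters came from RefSeq (GRCm38), and no coordinates of the authors' build were used. Figures were drawn with matplotlib 3.10.9. In each role, values per library are given for the gene with the highest mean CPM and for those with the largest change in Ing1 KO against the WT and in the labelled DKO against the labelled Gadd45a KO. In other lists, up to 3 called genes with the smallest adjusted p per comparison could be named. A gene of the pathway lists is not reported here. The members, lists and rules were chosen with earlier results of these data known.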

Additional observations from a re-analysis of the deposited data

Results flagged for a closer look

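The 46 genes listed here are 32 effector genes and 14 other genes of the pathway. For each, the log2 fold change that goes with the loss of Ing1 differed between both labelled Gadd45a backgrounds. One is the labelled DKO over the labelled Gadd45a KO, the other Ing1 KO over the WT. The difference is the interaction term of the edgeR quasi-likelihood fit over the 12 libraries, with adjusted p from 0.0002 to 0.0477. All 46 were above 0. The 14 are up to 3 genes from each pathway list, those with the smallest adjusted p of this term. Other pathway genes named in the text also had it called above 0, among them Ifnar1, Ifnar2, Irf8, Dhx58, Tlr7, Lgals9, Uba7 and Ccl5. The macrophage markers were also higher in the labelled DKO, and their part in these differences was not tested.

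Among the ISG15 system and the Ifit genes, the log2 interactions were those of Isg15 (3.52), Usp18 (3.35), Trim25 (0.52), Ifit1 (3.59), Ifit2 (0.41) and Ifit3 (2.26). Among the Oas family, the log2 interactions were those of Oasl1 (3.24), Oasl2 (2.93), Oas1a (3.32) and Oas2 (3.94). Among the GTPases, the log2 interactions were those of Mx1 (3.56), Mx2 (3.13), Gbp3 (2.17) and Gbp7 (1.64). Among the membrane, secreted and nucleotide genes, the log2 interactions were those of Bst2 (2.11), Ifitm3 (0.44), Rtp4 (2.65), Lgals3bp (1.51), Rsad2 (3.28), Cmpk2 (2.36) and Samhd1 (0.20). Among the ADP-ribosylation genes, the log2 interactions were those of Parp9 (1.05), Dtx3l (0.94), Parp12 (0.38) and Parp14 (1.44). Among the remaining effector genes, the log2 interactions were those of Slfn2 (2.06), Slfn5 (2.04), Trim30a (1.79), Sp100 (2.20), Ddx60 (3.13), Xaf1 (1.60) and Ifi44 (3.18). Among the other genes of the pathway, they were those of Il10rb (0.46), Jak2 (0.35), Ifngr1 (0.21), Irf9 (0.99), Irf7 (2.34), Stat2 (0.92), Eif2ak2 (0.91), Rigi (0.87), Ifih1 (1.52), Ptpn6 (1.93), Pias1 (0.21), Igtp (1.95), Irgm2 (1.49) and Psmb8 (1.58). Slfn5 was lower in the group without Ing1 on both backgrounds, at -0.99 log2 in the labelled DKO over the labelled Gadd45a KO and -3.04 log2 in Ing1 KO over the WT. Oas1a, at 1.62 log2 and -1.70 log2 in the same comparisons, lay on opposite sides of 0.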

How the results depend on the processing

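No call of an effector gene reversed its direction under the alternatives run: DESeq2's test, its RLE size factors in edgeR, no filter on low counts, only the groups compared, the replicate block, or 1 library left out. The number of effector genes called stayed within 1.5 times in every comparison but that of the labelled Gadd45a KO with the WT. There DESeq2 called 4 of them and 31 genes in all, edgeR with only the groups compared called 0 genes, and the main edgeR counts were 0 and 1. The cause was not tested. With 3 repeats the response element was in 4 of the 30 effector genes, since the longer motif holds the shorter, and with only the 250 bases before the start in 13.

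Without 1 library, the effector genes called numbered 28 to 33 in Ing1 KO and 0 to 0 in the labelled Gadd45a KO, both against the WT. They numbered 9 to 14, 30 to 32 and 16 to 23 in the labelled DKO against the WT, Ing1 KO and the labelled Gadd45a KO, and 28 to 32 for the interaction. In the same order all genes called numbered 1858 to 3553, 1 to 13 (13 without WT replicate 1), 2754 to 4106, 2249 to 3862, 2679 to 4186 and 1300 to 3285, in fits of fewer samples. DESeq2 lost the calls of Samhd1 in Ing1 KO against the WT, as did the RLE size factors, and of Oas2 in the labelled DKO against the WT. With no filter on low counts, the calls of Ifit3, Oasl1, Samhd1 and Slfn2 in Ing1 KO against the WT were lost. So were those of Oas2 and Parp14 in the labelled DKO against the WT, Samhd1 against Ing1 KO, Ifit1, Ifit3, Oasl1 and Ifi27 against the labelled Gadd45a KO, and the interaction of Samhd1. With only the groups compared, calls lost were Oasl1 and Samhd1 in Ing1 KO and Parp14 and Xaf1 in the labelled DKO, against the WT. Samhd1 against Ing1 KO and Parp9 against the labelled Gadd45a KO were lost too. The higher genes then numbered 30 against Ing1 KO (32 in the main fit) and 18 against the labelled Gadd45a KO (20). Not every call lost in these 2 comparisons is therefore named. Calls were gained for Gbp2, lower in the labelled DKO against the labelled Gadd45a KO by DESeq2 (adjusted p = 0.0248) and with only the groups compared (edgeR adjusted p = 0.0398), and for Cmpk2, higher against the WT with only the groups compared (0.0194). DESeq2 gave no adjusted p for Mx1 in the interaction.

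Replicate numbers are shared between groups. Of 18 pairs of libraries with the same number, 5 had deviations from their group means that correlated above 0.1 (median -0.0087). Among 36 pairs with different numbers 9 did (median -0.0134). Of the 5 with the same number, 3 are the 3 pairs of the labelled Gadd45a KO with the WT (0.54, 0.153 and 0.324). The block called no effector gene there either. In no other pair of groups did all 3 pass, and there the numbers were not taken to pair the libraries. With the replicate block, 30 effector genes were called in Ing1 KO and 0 in the labelled Gadd45a KO against the WT. There were 12, 32 and 19 in the labelled DKO against the WT, Ing1 KO and the labelled Gadd45a KO, and 29 for the interaction. The calls lost were those of Ifit3, Oasl1 and Samhd1 in Ing1 KO against the WT, Parp14 in the labelled DKO against the WT, Ifit1, Ifit3 and Oasl1 in the labelled DKO against the labelled Gadd45a KO, and Ifit2, Mx1 and Samhd1 in the interaction. Genes under 1 CPM in the WT, such as Mx1, Oas3, Oas2 and Rsad2, have few counts, which limits their precision.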

Other observations

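Across the 38 effector genes, those with a higher WT level per length tended to have the smaller fall in Ing1 KO. The 19 with the higher CPM per kb had a median log2 fold change of -0.75 in Ing1 KO against the WT, and the 19 with the lower CPM per kb had -1.70. Spearman's rho was 0.38 over the 38 genes, which share libraries, and both measures use the WT libraries.

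A second motif, the gamma-activated site (TTC, any 3 bases, GAA), was in the promoter window of 7 of the 30 effector genes with a window (23.3%), against 9.55% of genes. The 7 were Bst2, Gbp7, Ifi35, Ifit2, Ifitm3, Oas1a and Samhd1. In the labelled DKO over the labelled Gadd45a KO, the median log2 fold change was 1.00 over the 14 effector genes with the response element core and 0.13 over the 16 without it. The ranges overlapped, from -0.99 to 1.92 with the core and from -0.07 to 1.51 without it.

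Markers of other cell types were low, and some differed between groups. Their part in the effector gene values was not tested. Skeletal muscle markers summed to 62.5 to 99.9 CPM in the labelled DKO, 82.8 to 132 CPM in Ing1 KO, 47.6 to 65.3 CPM in the labelled Gadd45a KO and 54.5 to 56.8 CPM in the WT. Of the 2 tested, Acta1 was called as higher in Ing1 KO and in the labelled DKO, each against the WT, and 4 of the 6 (Myf5, Myod1, Myog and Pax7) were below 0.5 CPM in every group. Epithelial markers summed to 8.4 to 10.4 CPM in the labelled DKO, 8.44 to 13 CPM in Ing1 KO, 5.54 to 7.74 CPM in the labelled Gadd45a KO and 5.38 to 6.98 CPM in the WT. Krt19 and Krt7 were called as higher in Ing1 KO, and Cdh1 and Krt19 in the labelled DKO, against the WT. Of all genes, 12.1% were higher in Ing1 KO and 15.6% in the labelled DKO, against the WT.

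Endothelial markers summed to 7.71 to 9.004 CPM in the labelled DKO, 4.94 to 5.4 CPM in Ing1 KO, 4.505 to 5.65 CPM in the labelled Gadd45a KO and 5.99 to 6.53 CPM in the WT. Of the 6 tested, 3 were higher in the labelled DKO than in the WT (Kdr, Pecam1 and Vwf) and 1 was lower (Tek). Of all genes, 15.6% were higher and 10.3% lower there. In Ing1 KO Emcn was higher and Tek lower than in the WT, where 12.1% of all genes rose and 11.4% fell. Neural markers summed to 138 to 176 CPM in the labelled DKO, 101 to 124 CPM in Ing1 KO, 87.3 to 132 CPM in the labelled Gadd45a KO and 98.8 to 109 CPM in the WT. Tubb3 was called as higher in the labelled DKO than in the WT, as were 15.6% of all genes. By edgeR none of the 5 neural markers tested was called in Ing1 KO against the WT. An unadjusted p under 0.05 was found for 1 of them, against 36.3% of all genes.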
